A study of Mus musculus with 4 samples.

Results

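The Tcl1 and Tcl1b gene cluster of the mouse, 6 genes on chromosome 12, was followed from the oocyte to the blastocyst. The 6 members, Tcl1, Tcl1b1, Tcl1b2, Tcl1b3, Tcl1b4 and Tcl1b5, were taken by symbol from a table of 20171 genes, and their 135 isoforms from a table of 68012 isoforms. The rule for choosing them used no measured value, but earlier results of these data were known when they were chosen. Full-length cDNA of single blastomeres was sequenced on long reads with a cell barcode and a unique molecular identifier (UMI), so that each UMI stands for 1 captured mRNA molecule, and the deposited values are copies per 100,000 UMIs of the cell. The labels give the strain as DBA/2J x C57BL/6J. By the study's methods the females were C57BL/6J and the males DBA/2NCrl, and oocytes came from unmated females. All females were superovulated, and no other treatment and no genetic change is given. The stages were 10 oocytes, 9 zygotes, 5 early 2-cell (E2C), 6 late 2-cell (L2C), 5 4-cell, 4 8-cell and 4 16-cell embryos, 43 in all with 121 cells. A further 22 cells of the 32-cell stage, 13 blastocyst cells and 5 mouse embryonic stem cells (mESCs, a male line) carry no embryo name and were not tested. Values of the cells of 1 embryo were averaged, and the embryo was the replicate; nothing says that the embryos of a stage came from different litters, so p-values measure the spread between embryos.

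Proteins of the TCL1 family bind the kinase AKT and raise its activity. Human TCL1A is known as an oncogene of T-cell leukaemia, and mouse Tcl1 is a maternal-effect gene that is also active in embryonic stem cells. The Tcl1b genes are a family of close copies known in rodents.

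The cluster was compact. In the GRCm38 (mm10) annotation it spanned 76780 bp, with Tcl1b2 at chr12:105146014-105155225, Tcl1b1 at chr12:105159690-105166625, Tcl1b5 at chr12:105176344-105181145, Tcl1b3 at chr12:105191043-105195612 and Tcl1b4 at chr12:105201957-105206993, all on the plus strand, and Tcl1 at chr12:105216750-105222793 on the minus strand. The gaps between neighbours ran from 4464 to 9897 bp, and 0 tested genes lay between the members. Each reference transcript had 4 exons and 348 to 366 coding bases. Coding sequences of the 10 pairs of Tcl1b genes were 71.4% to 86.3% identical, with Tcl1b5 and Tcl1b3 the closest pair, whereas Tcl1 was 49.6% to 51.9% identical to the Tcl1b genes. Of the 135 isoforms, 0 overlapped another member. The study kept only some classes of isoform, each named for a single gene, so this count cannot tell whether transcripts spanning members were made. Reads of the Tcl1b copies could still be placed on the wrong copy, and this was not tested.

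**Figure D1:**
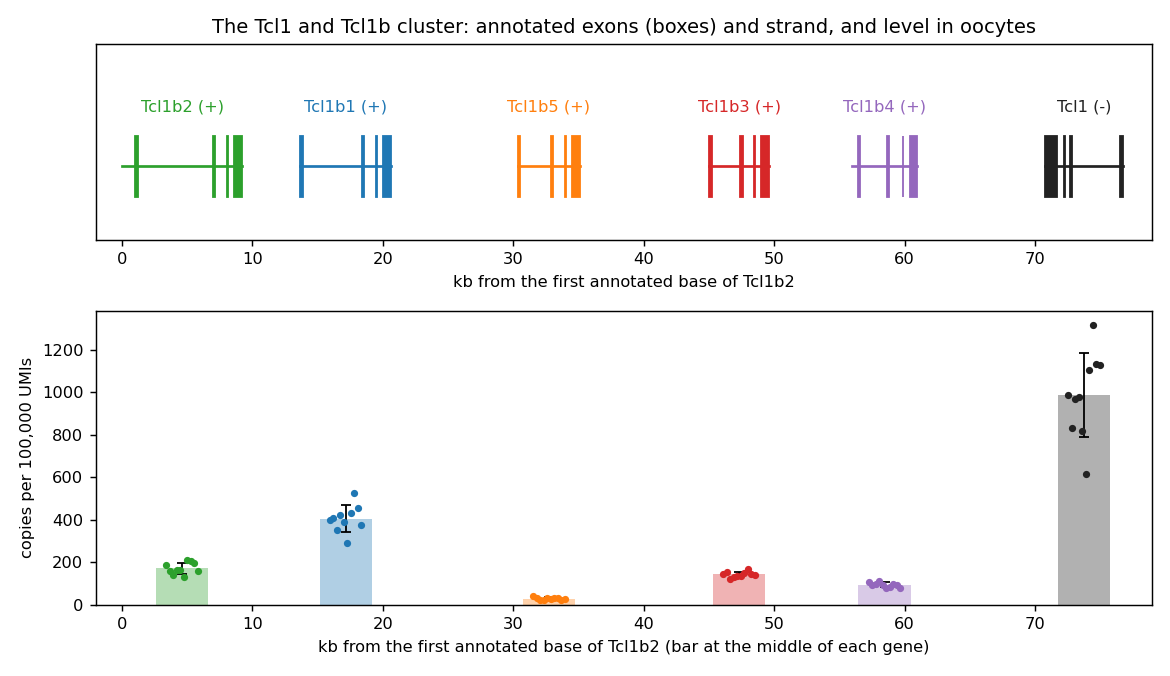
The upper panel maps the exons (boxes) of the reference transcripts and the annotated span (line) of each member in kb from the first annotated base of Tcl1b2. The lower panel gives copies per 100,000 UMIs in 10 oocytes (points), with the mean (bar, placed at the middle of the gene) and SD; Tcl1, at the far end and on the other strand, had the highest mean, 988, and Tcl1b5, in the middle, the lowest, 29.3.

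Short stretches of sequence show how the copies are related. The first is the end of the protein-coding sequence, which lies in exon 3 and differs between members in length and stop codon. It is shown because exon 3 was the exon left out in a share of the Tcl1b1 and Tcl1 molecules described later. The coding part of exon 3 of each GENCODE M21 reference transcript (GRCm38, 5′ to 3′ on the gene's strand) follows with the stop codon in capitals.
Tcl1b2, chr12:105154063-105154101: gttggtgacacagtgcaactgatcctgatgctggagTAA
Tcl1b1, chr12:105165470-105165514: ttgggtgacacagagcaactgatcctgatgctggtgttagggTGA
Tcl1b5, chr12:105179982-105180035: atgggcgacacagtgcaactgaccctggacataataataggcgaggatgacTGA
Tcl1b3, chr12:105194447-105194500: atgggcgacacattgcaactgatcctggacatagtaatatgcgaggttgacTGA
Tcl1b4, chr12:105205852-105205896: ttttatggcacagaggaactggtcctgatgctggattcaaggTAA
Tcl1, chr12:105218233-105218292: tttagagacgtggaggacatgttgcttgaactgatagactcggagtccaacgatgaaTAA
Tcl1b5 and Tcl1b3 shared the longest ending among the copies, 54 bases, and Tcl1b2 had the shortest, 39 bases.

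The second is the region just upstream of the start. An E-box of the letters CAGGTG, searched on both strands, was present in the 250 bases upstream of the RefSeq start of 6 of 6 members, against 17.2% of 32851 RefSeq promoters (GRCm38.p6). Each of the 5 Tcl1b genes held it 2 times, with 19 bases between the copies, against 2.06% of all promoters with 2 or more; the letters overlap the general E-box CANNTG, which 66.2% of promoters hold. The 30 bases around the copy nearer the start, with the box in capitals, follow; for Tcl1 the single box reads CACCTG on the gene's strand.
Tcl1b2, chr12:105146958-105146987: gagcttctgaccCAGGTGctagaactaggt
Tcl1b1, chr12:105159629-105159658: gagcttctggccCAGGTGccagaactaggt
Tcl1b5, chr12:105176283-105176312: gagcttctgaccCAGGTGccagaactaggt
Tcl1b3, chr12:105190968-105190997: gagcttctggccCAGGTGctagaactaggt
Tcl1b4, chr12:105202347-105202376: gagcttctggccCAGGTGctagaactaggt
Tcl1, chr12:105222738-105222767: acaggcccaCACCTGgtagtgataaataga
Of these 30 positions, 28 were the same in all 5 Tcl1b genes. The boxes of these close copies are thus not independent of each other, and the shares of all promoters are no test for them. A link between the box and the levels of the members was not tested. The NOBOX letters (TAATTG) were in 0 of the 6 windows and in 7.17% of all promoters. The LHX8 letters (TGATTG) were likewise in 0 of 6 and in 12.7% of promoters. The octamer (ATGCAAAT) was in 0 of 6 and in 1.60%, and the TATA letters (TATAAA) were in 0 of 6 and in 12.4%. In the deposited isoform models the leading isoform of each member began 195 to 577 bp upstream of the start of its GENCODE reference transcript. All 6 of these stretches lay inside its first exon. Starts of single molecules were not analysed here.

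The third is the end of the transcript. All 5 Tcl1b reference transcripts ended with the poly(A) hexamer ATTAAA 25 bases before the end, and Tcl1 with AATAAA 28 bases before it, in capitals below. Among 58793 coding transcripts, 9.74% held ATTAAA and 35.5% AATAAA in the last 30 bases.
Tcl1b2, chr12:105155196-105155225: aagtaATTAAActttactgtttttacttaa
Tcl1b1, chr12:105166596-105166625: aactaATTAAActttactgtttttacttaa
Tcl1b5, chr12:105181116-105181145: aactaATTAAActttactgtttttacttaa
Tcl1b3, chr12:105195583-105195612: aactaATTAAActttattgtttttacttaa
Tcl1b4, chr12:105206964-105206993: aactaATTAAActttactgtttttacttaa
Tcl1, chr12:105216750-105216779: ttAATAAAgctttgtagaactttaaaattt
The Tcl1b endings were near copies of each other and unlike that of Tcl1.

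Depth fell with stage, from 166731 to 389775 UMIs per oocyte or zygote to 17971 to 105534 per 2-cell blastomere and 4985 to 60831 per cell from 4-cell to 32-cell, so low members of late cells rest on few UMIs. A value per 100,000 UMIs is a share, and fewer molecules of a member cannot be told apart from more of the other mRNAs. Oocyte genes (Zp1, Zp2, Zp3, Gdf9, Bmp15, Oosp1 and Nlrp5, 7 of 7 in the table) summed to 1705 to 2266 copies in oocytes and 545 to 741 at E2C. Markers of inner cell mass and stem cells summed to 77.4 to 115 in mESCs, against 2.76 to 8.28 in oocytes. Cumulus cell markers, with 5 of 7 genes in the table, summed to at most 9.81 copies in oocytes and 5.10 at E2C, to 5.56 to 24.9 at L2C and to 10.3 to 42.1 at 4-cell. Inha, Fshr and Has2 were at 0 at each stage from E2C to 8-cell, and Cyp19a1 was also at 0 at L2C. The L2C sum was thus that of Amhr2 alone. Blood cell markers summed to at most 0.561 in oocytes, 15.1 in zygotes, 12.9 at L2C and 23.1 at 4-cell. The 4-cell sum was that of Hba-a1 alone. The part of other cells' RNA in the members' values was not tested.

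The 3 zygotes of sequencing run 3 stood apart from the other 6 zygotes. Gdf9, the gene of an oocyte growth factor, measured 717 to 947 copies in them, against 98.8 to 319 in the other 6 zygotes and 430 to 982 in the 10 oocytes. Bmp15, another oocyte growth factor gene, measured 16.1 to 56.8 in them, against 59.8 to 179 in the other zygotes and 20.9 to 79.6 in oocytes. For both genes these 3 libraries, labelled zygote, thus lay outside the range of the other zygotes. All 3 lay within that of the oocytes for Gdf9, and 2 of the 3 for Bmp15. The oocytes of run 3 were shifted the same way. Gdf9 measured 769 to 982 in them, against 478 to 667 in oocytes of run 1 and 430 in that of run 2. Bmp15 measured 20.9 to 40.9, against 41.3 to 64.5 and 79.6. The part of the run in these values was not tested. The run was read from the number after each cell barcode in a supplementary list of the study, which names all 19 oocytes and zygotes. Oosp1, an oocyte secreted protein gene, measured 790 to 950 in them and 939 to 1303 in the other zygotes, with no oocyte under 1040. The counts of called genes and isoforms and the ratio of Tcl1b to Tcl1 are given with and without them, while isoform shares and lengths were fitted with them only. The tables name cells rather than barcodes, so barcodes shared between runs were not counted, and no doublet caller was run on these hand-picked cells.

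In oocytes, Tcl1 was among the most abundant mRNAs. It measured 616 copies in the lowest oocyte, 982 at the median and 1316 in the highest, a mean of 988 ± 199 (SD, n = 10), the 6th highest mean of all genes. Tcl1b1 measured 292, 402 and 525.6 (lowest, median, highest; mean 405 ± 62.2, rank 31), and Tcl1b2 131, 164 and 211 (mean 172 ± 27.0, rank 73). Tcl1b3 measured 122, 143 and 167 (mean 143 ± 12.7, rank 93), Tcl1b4 78.3, 93.4 and 113 (mean 93.5 ± 11.3, rank 161), and Tcl1b5 21.7, 28.2 and 41.8 (mean 29.3 ± 6.01, rank 563). Every oocyte had more Tcl1 than any had Tcl1b1, and more Tcl1b1 than any had Tcl1b2. Tcl1b2 and Tcl1b3, neighbours in this order, overlapped between oocytes, while Tcl1b3 lay above Tcl1b4 and Tcl1b4 above Tcl1b5 in every oocyte. Since UMIs count molecules, these values compare copies without correction for length. Together the 6 genes made up 1.28% to 2.35% of all copies in an oocyte, with a median of 1.85%.

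No member changed past the threshold through fertilization and the first cleavage. In zygotes Tcl1 measured 619, 721 and 1321 copies (lowest, median, highest, n = 9) and Tcl1b1 337, 390 and 492, so both overlapped their oocyte values. From oocyte to zygote 0 of 6 members were called by limma, where a call is a log2 change over 1 in size with an unadjusted p under 0.01, against 3.24% of 11682 genes. The log2 changes ran from -0.33 (Tcl1) to 0.14 (Tcl1b5), and adjusted p from 0.37 to 0.996 in limma. From zygote to E2C 0 of 6 were called, against 7.27% of genes; changes ran from -0.39 (Tcl1b2) to -0.04 (Tcl1), with adjusted p in limma from 0.43 to 0.97. At both steps 0 members had an unadjusted p under 0.05 in limma, and edgeR and DESeq2 on the UMIs called 0. Without the zygotes of run 3 both counts were again 0, and the change of Tcl1 from oocyte to zygote was -0.51 ± 0.23 (adjusted p 0.11 in limma). In the 3 sequencing runs that held both stages, the log2 change of Tcl1 was -0.39, 0.09 and -0.09, and no member changed by over 0.39 in any run. Run 2 held 1 oocyte only. Zygote Tcl1 differed by run, at 619 to 788 in the 4 zygotes of run 1, 645 and 665 in run 2 and 929 to 1321 in the 3 of run 3, and oocytes of run 3 (1105 to 1316) were likewise above those of runs 1 and 2 (616 to 985).

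At E2C the members still stood at 76.4% to 86.3% of their oocyte means. Oosp1 was already at 30.5% of its oocyte mean at E2C, and Gdf9 at 6.15%, whereas Bmp15 was at 378%. Whether the members differed from these genes was not tested.

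Between E2C and L2C all 6 members fell. Tcl1 measured 886, 641, 569, 881 and 869 copies in the 5 E2C embryos, and 14.7, 67.9 and 128 at L2C (lowest, median, highest of 6). Every L2C embryo lay under every E2C embryo. The log2 change of Tcl1 was -3.98 ± 0.41 (SE), with a 95% interval from -4.81 to -3.15 and an adjusted p of 2.0e-12 in limma. Tcl1b1 measured 353, 257, 271, 364 and 383 at E2C and 7.24, 29.1 and 77.9 at L2C, a log2 change of -3.63 ± 0.44 (adjusted p 2.9e-10 in limma).

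Tcl1b2 fell by about as much as Tcl1. It measured 128, 117, 81.8, 139 and 191 at E2C and 2.48, 7.57 and 25.1 at L2C, a log2 change of -3.79 ± 0.45 (adjusted p 1.4e-10 in limma). Tcl1b4 measured 90.6, 54.0, 73.7, 99.9 and 85.3 at E2C and 2.48, 6.03 and 19.4 at L2C, a log2 change of -3.60 ± 0.41 (adjusted p 3.1e-11 in limma). For both genes the groups were again apart.

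Tcl1b3 and Tcl1b5 had the smallest changes. Tcl1b3 measured 130, 82.2, 97.0, 125 and 142 at E2C and 4.23, 24.2 and 36.7 at L2C, a log2 change of -2.66 ± 0.41 (95% interval -3.49 to -1.83; adjusted p 1.6e-07 in limma). Tcl1b5 measured 25.4, 25.95, 26.3, 21.8 and 23.2 at E2C and 1.48, 3.59 and 9.16 at L2C, a log2 change of -2.51 ± 0.39 (95% interval -3.28 to -1.74; adjusted p 1.3e-07 in limma). The fold is on the log2(value + 1) scale, which understates it for the low Tcl1b5: with a pseudocount of 10 its change was -1.33. In 6 of 6 members no L2C embryo reached the E2C range, against 14.6% of all genes, and 6 of 6 were called lower against 22.8% of genes; 48.4% of genes were called in either direction at this step. The median log2 change was -3.62 over the members, 0.03 over all 11682 genes and -1.76 over the 2664 genes called lower.

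**Figure D2:**
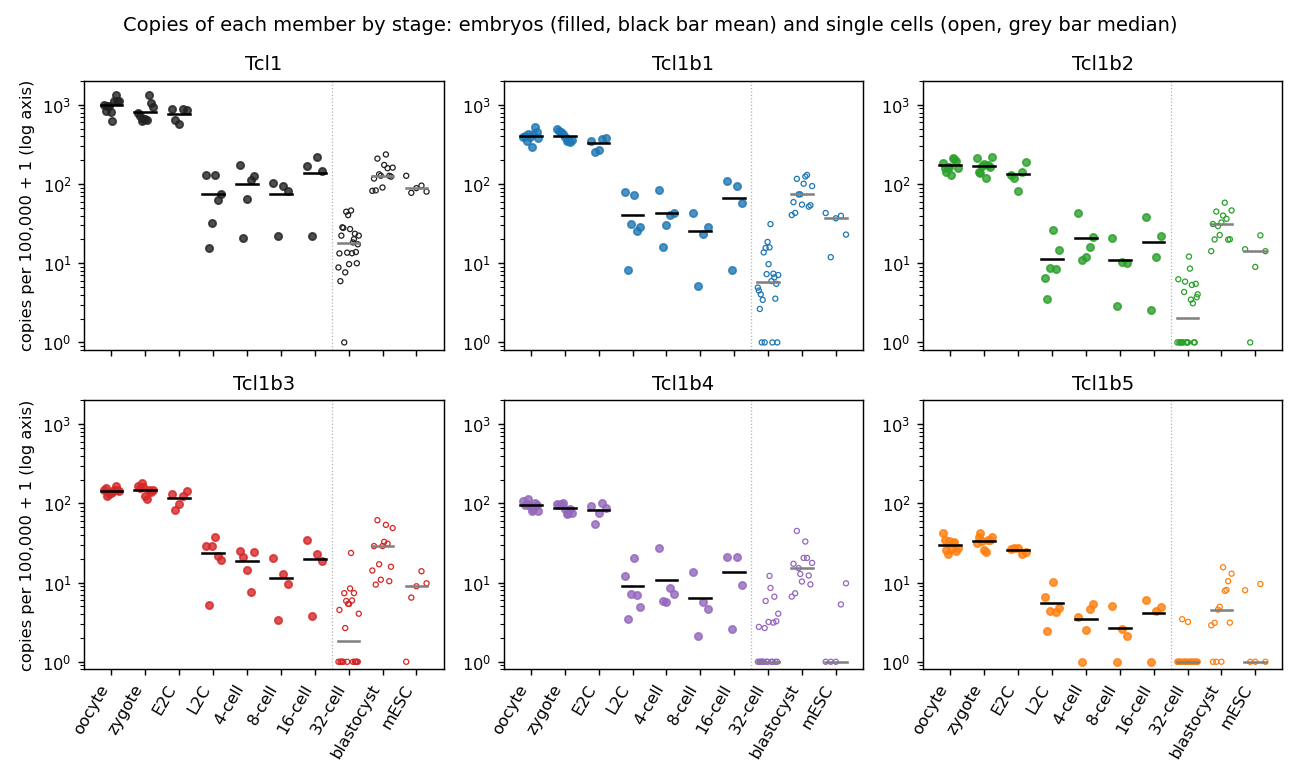
Copies per 100,000 UMIs plus 1, on a log axis, for each member in 43 oocytes, zygotes and embryos (filled points, mean as a black bar) and in single cells of the 32-cell stage, blastocyst and mESC (open points, median as a grey bar). All 6 members drop between E2C and L2C, where the mean of Tcl1 went from 769 to 73.0 copies, and the embryo numbered 2 is the lowest of Tcl1 at each stage from L2C to 16-cell.

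Sister blastomeres held close amounts at this time. The summed copies of the members differed between sister cells by at most 1.13-fold in the 5 E2C embryos and at most 1.34-fold in the 5 L2C embryos with both cells. The highest of those L2C cells held 308 copies and the lowest E2C cell 1076, so both cells of each pair were in the low range.

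Tcl1 was about as abundant as the 5 Tcl1b genes together. It made up 53.6 ± 3.51% of member copies in oocytes, 48.9 ± 7.51% in zygotes (n = 9), 53.1 ± 1.88% at E2C (n = 5) and 45.1 ± 8.48% at L2C (n = 6). Tcl1b3 made up 6.99% to 8.67% at E2C and 10.9%, 13.0% and 26.6% at L2C (lowest, median, highest), so the groups did not overlap, and it was 8.05 ± 1.29% again at the 8-cell stage (n = 4). Tcl1b5 made up 1.77 ± 0.48% at E2C and 3.06 ± 0.81% at L2C, with overlap. These 2 shares were singled out after their values were seen and were not tested. The log2 ratio of summed Tcl1b to Tcl1 was -0.21 ± 0.20 in oocytes, 0.06 ± 0.44 in zygotes, -0.18 ± 0.11 at E2C and 0.29 ± 0.51 at L2C. The step from E2C to L2C, a difference of 0.47, had p = 0.017 and an adjusted p of 0.052 over 3 steps (exact permutation test, two-sided). Oocyte to zygote (0.27) and zygote to E2C (-0.24) had adjusted p of 0.14 and 0.25 in the same exact permutation test. These values differed by sequencing run, which is unevenly spread over both stages. By run, the ratio was 0.32 to 0.55 in the 4 zygotes of run 1, against -0.38 to 0.04 in its 5 oocytes, and 0.06 and 0.27 in run 2, against 0.11 in its 1 oocyte. In run 3 it was -0.74 to -0.15 in zygotes and -0.53 to -0.29 in oocytes. The difference of zygotes from oocytes was 0.55 within run 1 (p = 0.016, exact permutation test, two-sided), 0.06 within run 2, which is too small for a test, and -0.09 within run 3 (p = 0.63, same exact permutation test). Without the 3 zygotes of run 3 the difference was 0.54 from oocyte to zygote (adjusted p 0.0015) and -0.51 from zygote to E2C (adjusted p 0.0065; exact permutation tests). Without the oocytes of run 3 as well, the first was 0.43 (adjusted p 0.0065, exact permutation test). The runs of the E2C embryos were not known. The L2C embryo numbered 3 had by far the highest ratio, 1.27; without it the difference from E2C was 0.28 with an adjusted p of 0.095 (exact permutation test).

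**Figure D3:**
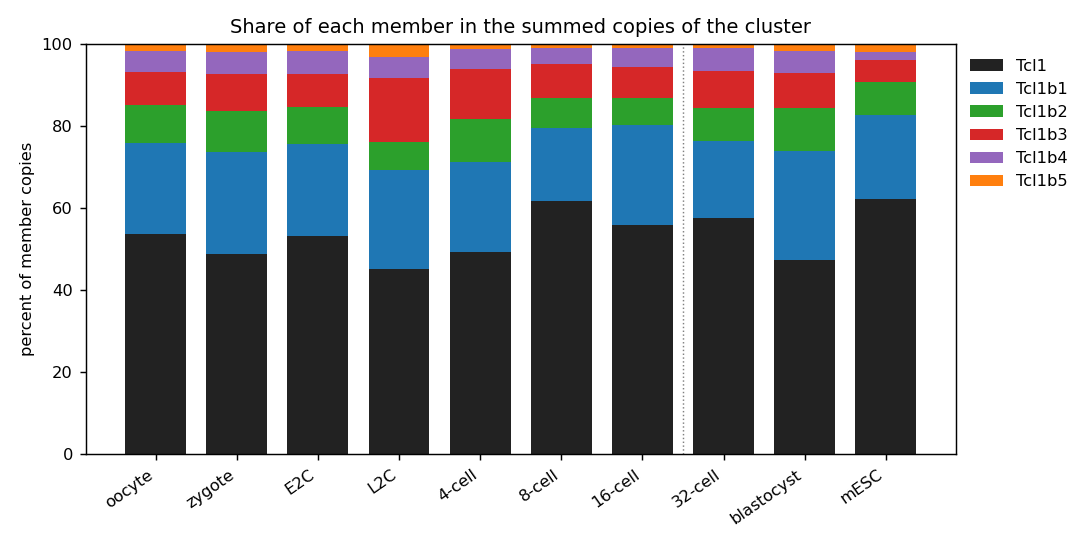
Stacked bars give the share of each member in the summed copies of the cluster in percent, as the mean over embryos up to the 16-cell stage and over pooled UMIs of single cells to the right of the dotted line. Tcl1 was the largest part at every stage, from 45.1% at L2C to 62.3% in mESCs, and Tcl1b3 was widest at L2C, with a mean of 15.4%.

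After L2C the members stayed under their E2C range. Between the L2C and 4-cell stages 0 of 6 were called by limma, against 6.69% of genes, with 2 at an unadjusted p under 0.05 and 0 called by edgeR or DESeq2; Tcl1 had a log2 change of 1.15 and an adjusted p of 0.18. Between the 4-cell and 8-cell stages 0 of 6 were called, against 15.0% of genes, again with 2 at an unadjusted p under 0.05 in limma and 0 called by edgeR or DESeq2. From 8-cell to 16-cell 2 of 6 were called higher, against 3.36% of genes called in either direction. Tcl1b1 measured 42.0, 4.15, 22.5 and 28.1 copies in the 8-cell embryos and 107, 7.26, 93.0 and 56.1 in the 16-cell embryos, a log2 change of 1.52 ± 0.45 with an adjusted p of 0.067 in limma. Tcl1b4 measured 12.5, 1.14, 4.61 and 3.69, then 20.1, 1.59, 20.4 and 8.31, a log2 change of 1.18 ± 0.41 (adjusted p 0.16 in limma). Neither passed an adjusted p of 0.05, and the groups overlapped. The count was 0 without the 8-cell embryo numbered 2 or the 16-cell embryo numbered 1, 0 with edgeR and 1 with DESeq2. It was 1 without the 8-cell embryo numbered 4 or the 16-cell embryo numbered 3, 5 without the 8-cell embryo numbered 1, and 4 and 6 without the 16-cell embryos numbered 4 and 2.

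The embryo numbered 2 was the lowest in Tcl1 at each stage from L2C to 16-cell. It held 14.7 Tcl1 copies at L2C (others 31.0 to 128), 20.1 at 4-cell (others 63.5 to 175), 21.3 at 8-cell (others 80.5 to 102) and 20.9 at 16-cell (others 143 to 221). The 4-cell value rests on 2 cells of 4985 and 20426 UMIs, with 2 Tcl1 UMIs in the first and 0 in the second, and at this stage Tcl1b3 and Tcl1b4 were not lowest in it. Tcl1b1 was lowest in it at all 4 stages, for example 7.26 at 16-cell against 56.1 to 107. Oosp1 was also lowest in these embryos, at 13.7 against 25.4 to 72.4 at L2C and at 8.52 against 86.9 to 146 at 16-cell. Gdf9 was lowest in them at 3 of the 4 stages, at 3.07 against 31.4 to 43.9 at 16-cell. Without these embryos 6 of 6 members were still called lower at E2C to L2C, with log2 changes from -3.52 (Tcl1) to -2.14 (Tcl1b3).

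**Figure D4:**
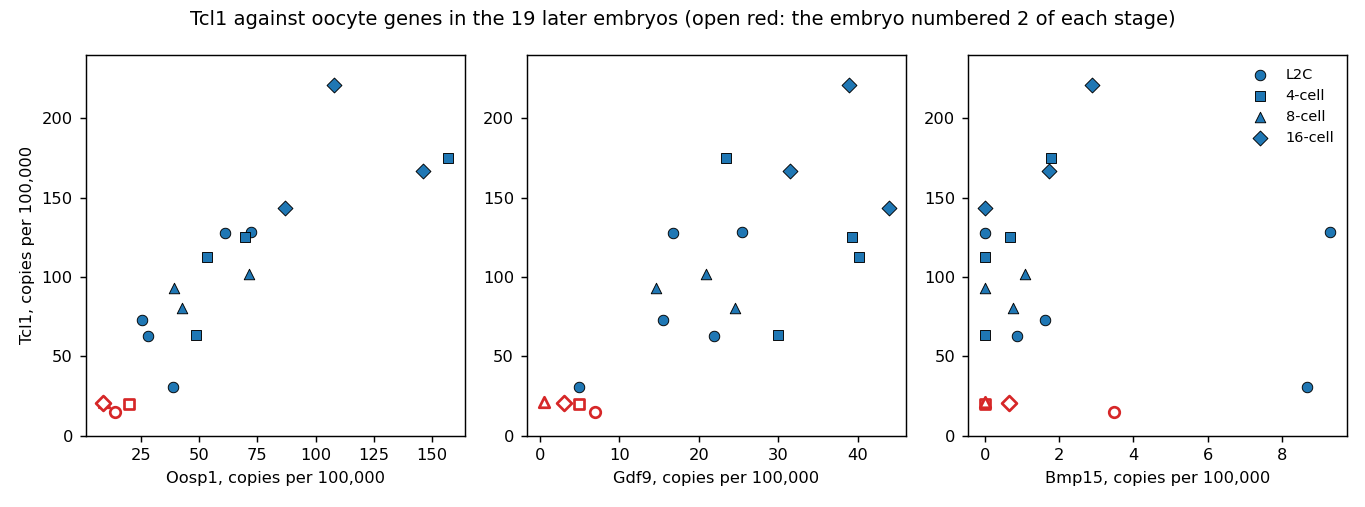
Tcl1 copies per 100,000 UMIs against those of the oocyte genes Oosp1, Gdf9 and Bmp15 in the 19 embryos from L2C to 16-cell, with the embryo numbered 2 of each stage as open red symbols. The red symbols sit at the lower left for Oosp1 (8.52 to 19.8 copies), whereas Bmp15 was at 0 to 9.30 copies in all 19.

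At 16-cell the members stood at 10.3% to 16.2% of their oocyte means, and Oosp1, Gdf9 and Bmp15 at 7.41%, 4.21% and 2.98%. The cDNA of the cells of a run was pooled after amplification, and how far late copies of these oocyte genes and of the members came from other cells of the pool was not tested.

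The 32-cell cells were the lowest of all. Tcl1 measured 0 to 45.3 copies with a median of 16.8 over 22 cells, and 21 of the 22 held at least 1 Tcl1 UMI. Tcl1b5 had UMIs in 2 of the 22, and Tcl1b4 in 10. In blastocyst cells Tcl1 measured 81.1 to 236 copies with a median of 126, and 13 of 13 cells held UMIs of each member except Tcl1b5, which 10 of 13 held. In mESCs Tcl1 measured 76.4 to 126 copies (median 87.9, 5 cells) and Tcl1b1 10.9 to 42.1. Oocyte genes were present in these cells too. In mESCs Gdf9 measured 10.9 to 43.9 copies and Oosp1 34.4 to 63.9, which by their medians was 4.32% and 3.73% of the oocyte means, against 8.90% for Tcl1 and 8.87% for Tcl1b1. In blastocyst cells the same shares were 3.48% and 9.67% for Gdf9 and Oosp1, 12.8% for Tcl1 and 18.0% for Tcl1b1. Zp1, Zp2, Bmp15 and Nlrp5 were at 0 in all 5 mESCs. Their oocyte means were only 5.37, 3.69, 44.2 and 8.25 copies, and the mESCs held 14267 to 25042 UMIs each. A share like that of Gdf9 could thus be missed for these 4 genes at this depth. The part of such oocyte RNA in the members' values was not tested.

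The isoform table held 37 isoforms of Tcl1, 23 of Tcl1b1, 27 of Tcl1b2, 21 of Tcl1b3, 9 of Tcl1b4 and 18 of Tcl1b5, with 122 distinct chains of splice junctions. By the deposited classes 24 matched all junctions of an annotated transcript, 17 a part of them, 19 joined known splice sites in a way not annotated, and 75 used a splice site that is not annotated. Most kinds were rare: the 24 full matches held 92.2% of 85980 member UMIs. The leading isoform held 82.4% of UMIs of Tcl1 (PB.18141.3, 1778 bases), 49.0% of Tcl1b1, 64.8% of Tcl1b2, 77.2% of Tcl1b3, 95.2% of Tcl1b4 and 70.0% of Tcl1b5. Tcl1b1 and Tcl1b2 were thus the members with the most divided output.

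Tcl1b1 molecules differed by exon 3. Of molecules that began in exon 1 and held exon 2, those without exon 3 made up 26.03%, 32.2% and 33.4% (lowest, median, highest of 10 oocytes; mean 31.5 ± 2.27%), 31.4 ± 2.28% in zygotes, 35.5 ± 4.99% at E2C, 29.2 ± 7.12% at L2C (5 embryos with at least 10 UMIs) and 28.6 ± 4.96% at 16-cell. The stages overlapped, and no test was made on this summed share. Tcl1 skipped exon 3 in 5.83 ± 0.56% of such molecules in oocytes and 6.20 ± 0.85% in zygotes. Tcl1b2, Tcl1b3 and Tcl1b4 skipped it in at most 1.14% in any oocyte, zygote or E2C embryo, and Tcl1b5 in 1.60 ± 2.95% in oocytes, on 439 UMIs. The stop codon printed above lies in exon 3. The annotated coding length is 348 bases with exon 3 and 387 in the annotated transcript without it for Tcl1b1, and 348 and 579 for Tcl1.

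Tcl1b2 molecules differed by the end of exon 3. Among all cells, 74.7% of 8081 UMIs with the usual start of exon 3 used a short exon of 41 bases that ends at chr12 position 105154103, and 22.9% a long one of 102 bases that ends at 105154164. Both keep the stop codon shown above, so the difference lies behind it. The short form made up 75.5 ± 2.32% in oocytes, 74.3 ± 4.12% in zygotes and 74.8 ± 3.02% at E2C. In Tcl1b4 all 4384 such UMIs used an exon 3 of 41 bases, which ends before the stop codon of the sequence printed above; that form is annotated with 363 coding bases in place of 360. The closest pair, Tcl1b3 and Tcl1b5, both mainly used an exon 3 of 75 bases, in 94.7% and 87.0% of UMIs. Tcl1 used its full exon 2 of 171 bases in 95.4% of 40737 UMIs and a shorter one of 122 bases in 4.48%.

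**Figure D5:**
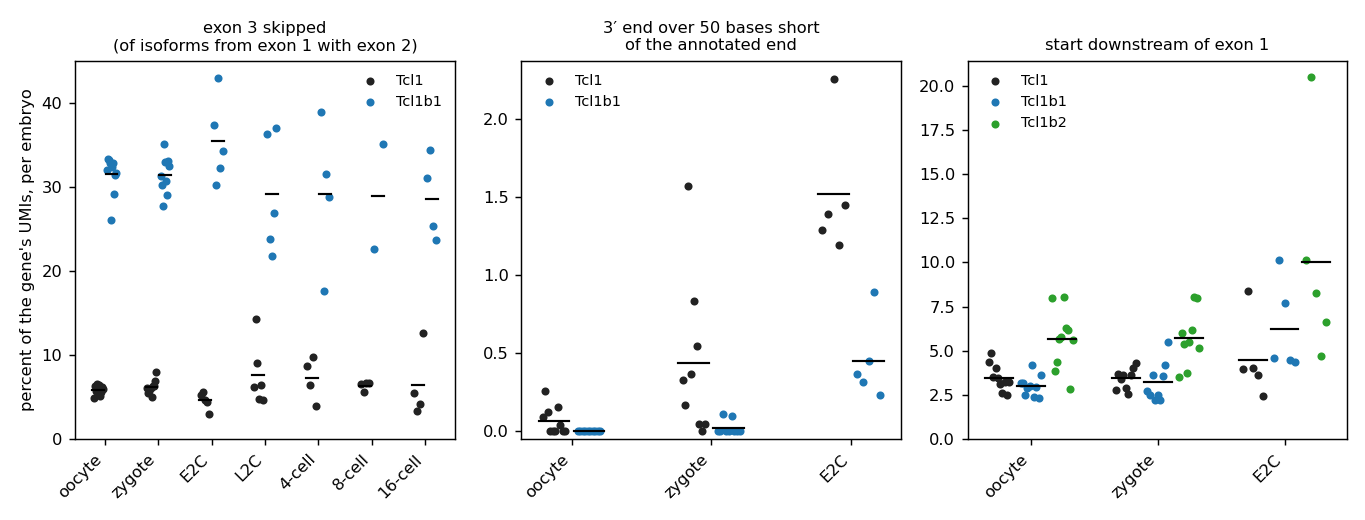
Each point is 1 oocyte, zygote or embryo with at least 10 UMIs of the gene, and black lines are means, in percent of UMIs. The left panel shows molecules without exon 3, with stage means of 28.6% to 35.5% for Tcl1b1 and 4.59% to 7.57% for Tcl1. The middle panel shows molecules whose 3′ end lies over 50 bases short (1.19% to 2.26% of Tcl1 at E2C) and the right panel those that start downstream of exon 1, both up to E2C.

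Molecules of Tcl1 with a short 3′ end made up a larger share at E2C than in oocytes. Of the 37 isoforms, 7 keep all 3 junctions but end 95 to 780 bp short of the annotated end, with 102 to 145 bp between neighbouring ends. These are ends of isoform models that the study collapsed from reads. Their spacing need not be that of molecule ends, which were not analysed here. They held 12 of 17263 Tcl1 UMIs in oocytes, 59 of 17918 in zygotes, 77 of 5283 at E2C and 1 of 318 at L2C, the last in an embryo with 16 Tcl1 UMIs. Per embryo this was 0% to 0.26% in oocytes, 0% to 1.57% in zygotes and 1.29%, 1.39%, 2.26%, 1.19% and 1.45% in the 5 E2C embryos. Every E2C embryo thus lay above every oocyte, while zygotes overlapped both. By run, zygotes measured 0.17% to 1.57% in run 1, 0.55% and 0.83% in run 2 and 0% to 0.05% in run 3; oocytes stayed at or under 0.26% in each. Tcl1b1 had 0 such UMIs of 7646 in oocytes, 2 of 9145 in zygotes and 12 of 2411 at E2C. This group was formed after the values were seen and has no test of its own. Molecules that start downstream of exon 1 were also more common at E2C by mean, at 6.25 ± 2.59% of Tcl1b1 and 10.0 ± 6.17% of Tcl1b2 against 3.22 ± 1.11% and 5.72 ± 1.58% in zygotes, but the groups overlapped. Over all other genes, isoforms that match only part of an annotated transcript held 16.3 ± 1.29% of UMIs in zygotes and 19.3 ± 2.59% at E2C. The part of RNA quality in these values was not tested.

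Of the 135 isoforms, 83 passed the filter of at least 1 copy in at least 4 embryos and were tested in limma with all 29409 such isoforms; the 52 low ones were not. The isoform table is scaled to its own UMIs, so its values are not those of the gene table. From oocyte to zygote 1 of 83 was called, a lower one of Tcl1, against 1.48% of isoforms. From zygote to E2C 4 were called higher and 1 lower, against 5.18%. The 4 were PB.18141.571, PB.18141.552 and PB.18141.546, which are 3 of the short-ended Tcl1 isoforms, with log2 changes of 1.23, 1.45 and 1.01 (adjusted p 3.9e-06, 0.00022 and 0.0067 in limma), and PB.18137.410, a Tcl1b1 isoform that starts downstream of exon 1 (1.03, adjusted p 0.068 in limma). The one called lower was PB.18137.52 of Tcl1b2 (-1.05). Without the zygotes of run 3, 4 were called, all higher: PB.18141.571, PB.18141.552, PB.18137.410 and PB.18141.21, a Tcl1 isoform that starts downstream of exon 1. The count fell to 2 without the E2C embryo numbered 1 or 3. From E2C to L2C 39 of 83 were called lower and 0 higher, against 13.1% of isoforms called lower and 26.0% called in either direction. These were 14 of 25 tested isoforms of Tcl1, 8 of 14 of Tcl1b1, 7 of 17 of Tcl1b2, 5 of 13 of Tcl1b3, 2 of 5 of Tcl1b4 and 3 of 9 of Tcl1b5. The median log2 change was -1.12 over the tested Tcl1 isoforms and -0.52 over those of Tcl1b2, against -3.98 and -3.79 for the genes. An isoform near 1 copy has little room to fall on the log2(value + 1) scale. One that was not called is thus not shown to have stayed. Isoforms of 1 gene are also not independent of each other. At the next 2 steps, up to the 8-cell stage, limma called 0 of 83 (4.29% and 7.93% of all isoforms). From 8-cell to 16-cell 6 were called higher, against 1.97%, among them PB.18137.201, the leading Tcl1b1 isoform (log2 change 1.73, adjusted p 0.041 in limma). The count was 0 without the 8-cell embryo numbered 2, 1 without the 16-cell embryo numbered 1, 3 without the 8-cell embryo numbered 4 and 11 without the 16-cell embryo numbered 4.

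Isoform shares within each gene were tested in limma on the arcsine scale, in embryos with at least 10 UMIs of the gene. From oocyte to zygote 0 of 83 shares had an adjusted p under 0.05, against 0.172% of all isoforms tested, and 0 had an unadjusted p under 0.05. From zygote to E2C it was 0 of 83, against 2.29%, with 7 at an unadjusted p under 0.05. From E2C to L2C, where only 52 isoforms of 3 members had enough UMIs, 6 were called, all lower, against 19.4% in either direction. The leading Tcl1 isoform, PB.18141.3, had a mean share of 83.3 ± 1.92% at E2C and 75.2 ± 7.59% at L2C (adjusted p 0.014 in limma). Embryos counted alike in these means whatever their depth, and 10 Tcl1 UMIs were enough to enter. Over the pooled UMIs of all Tcl1 isoforms the share was 4392 of 5283, 83.1%, at E2C and 250 of 318, 78.6%, at L2C. PB.18141.21 had 62 of 5283 Tcl1 UMIs at E2C, 1.17%, and 1 of 318 at L2C, 0.31%. That difference rests on 1 UMI at L2C and cannot be shown as a fall at this depth. The other 4 calls were of isoforms with 0 UMIs at L2C and also cannot be shown as falls. The 3 short-ended isoforms named above held 18, 13 and 12 of 5283 UMIs at E2C, 0.23% to 0.34%, while 0 of 318 allows up to 0.943% at L2C. PB.18137.622 of Tcl1b3 held 19 of 843, 2.25%, while 0 of 115 allows up to 2.61%. The mean spliced length of the Tcl1 isoform models, weighted by UMIs, was 1707 ± 7.90 bases in oocytes and 1705 ± 4.42 in zygotes. It was 1702 ± 8.76 at E2C and 1660 ± 50.1 at L2C. Lengths of single molecules were not read. At the last step 1 of 3 tested members was called, against 25.5% of genes. This was Tcl1, with a log2 change of -0.036 ± 0.012 (adjusted p 0.026 in limma), and without the E2C embryo numbered 5 it was not called. Tcl1b1 had a change of 0.024 (adjusted p 0.46 in limma) and Tcl1b3 of -0.039 (adjusted p 0.20 in limma). From oocyte to zygote 0 of 6 mean lengths were called in limma, against 0% of genes, and 0 had an unadjusted p under 0.05. From zygote to E2C no member's mean length was called in limma, against 4.11% of genes, with 1 at an unadjusted p under 0.05.

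Other genes of the AKT pathway moved in both directions. Of 32 listed genes 29 were tested, and from E2C to L2C 5 were called higher and 9 lower, with a median log2 change of -0.42. These 14 of 29 stand against 48.4% of all genes called at this step, a share near that background. Among those lower were Foxo3, a transcription factor held down by AKT, from 28.2 to 2.80 copies (log2 change -2.84 ± 0.31, adjusted p 1.1e-11 in limma), Pik3r1, the regulatory subunit of PI3-kinase (-2.04), Mtcp1, another TCL1 family gene outside the cluster, from 3.39 to 0.12 copies (-1.94), and Deptor, an mTOR inhibitor (-1.77). Among those higher were Gsk3b, a kinase that AKT inhibits, from 1.48 to 7.12 copies (1.69 ± 0.43, adjusted p 0.00065 in limma), Bad, a cell death protein that AKT phosphorylates, from 0.35 to 3.98 copies, and Pik3cb, a catalytic subunit of PI3-kinase (1.31). Akt1 measured 16.8 copies at E2C and 13.7 at L2C, with a log2 change of -0.42 and an adjusted p of 0.33 in limma.

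Of the 5 tested genes on each side of the cluster, 0 of 10 were called lower by limma from E2C to L2C, against 22.8% of all genes, and 6 were called higher, against 25.6%. Several of the 10 were near the floor at E2C. Gm47648 and Gm48807 were at a mean of 0 copies there, and Ak7, Gm28875, Gskip and Atg2b at 0.21, 0.31, 0.41 and 0.99. On the log2(value + 1) scale these genes had almost no room for a fall over 1, so the count of 0 cannot show whether they fell. Among the 6 called higher was Papola, a poly(A) polymerase, which went from 6.55 to 68.6 copies. Dicer1, the microRNA-processing enzyme on the left side, had a log2 change of -0.65 and an adjusted p of 0.18 in limma.

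Over the 43 oocytes, zygotes and embryos, the genes most like Tcl1 by Pearson r on log2(value + 1) were Bcl2l10, E330034G19Rik, Oas1d, Rfpl4 and Zbed3, and those most like the sum of the Tcl1b genes were Mphosph6, Oosp1, Ccdc69, Oosp3 and C86187. Bcl2l10, a BCL2 family gene, measured 954 copies in oocytes, 720 at E2C, 46.3 at L2C and 119 at 16-cell, close to Tcl1 at each. Because the embryos form a high and a low group, such a likeness mostly tells which genes share the fall between E2C and L2C, and r is not given.

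A separate table held UMI counts per isoform of 4 intact oocytes and of 12 libraries from split ones, 6 labelled as split into 2 and 6 as split into 4. The names do not tie pieces to an oocyte, so no test was made, and its scale is not that of the tables above. Of the 135 member isoforms 129 were also in it. Tcl1 measured 376, 401 and 409 copies per 100,000 (lowest, median, highest) in intact oocytes, 300.2, 362 and 421 in those split into 2 and 321, 406 and 448 in those split into 4. Tcl1b1 measured 124 to 170, 116 to 142 and 122 to 179. Tcl1 made up 52.0% to 59.6% of member UMIs over all 16.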

How the data were processed

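Single cells were reverse transcribed with a barcode and a UMI per molecule, and the pooled cDNA was sequenced on PacBio in 3 runs (a 4th held the split oocytes). Per the study's methods, the authors called consensus reads, aligned them to mm10 with minimap2, collapsed isoforms with cDNA_Cupcake, classed them with SQANTI3 and dropped isoforms seen in fewer than 5 cells. The deposited gene and isoform values are CPM divided by 10, that is copies per 100,000; 100% of non-zero values were whole UMIs (tolerance 0.1). The split-oocyte table and the isoform coordinates were deposited as UMI counts and positions. Stages came from the column names; 0 other columns were left out. Cells of the 32-cell stage, blastocyst and mESC were deposited in the same unit and entered as a score, since no embryo is named.

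The means of each embryo's cells were tested in limma 3.58.1 on log2(value + 1) with array weights, all 7 stages in 1 fit, for features with at least 1 copy in at least 4 embryos; p-values were adjusted by Benjamini-Hochberg over all features. Alternatives were other pseudocounts, filters and scalings, edgeR 4.0.16 and DESeq2 1.42.0 on the UMIs, the sequencing run as a term, and leaving out each embryo. On simulated data at E2C to L2C (11007 genes) limma recovered 31.3%, 92.5% and 100% of genes changed 2-, 4- and 10-fold. Named genes are the members, AKT genes called at the step with most members called (up to 4 in each direction, of which 1 is not reported here), 5 flanking genes a side and the 5 genes most like each pattern. The members and lists were chosen with earlier results of these data known. The sequencing run was read, for oocytes and zygotes only, from the number after each cell barcode in a supplementary list of the study. Promoters came from RefSeq, transcripts from GENCODE M21; proteins were not analysed here. Intervals and limits of counts cover counting error only.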

Additional observations from a re-analysis of the deposited data

Results flagged for a closer look

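In 67 groups of 4 to 10 embryos examined for a value far from the others, 2 stood out, which is near what chance gives (about 1 in 20 groups). In the 4-cell embryos, Tcl1b4 measured 25.98 copies per 100,000 in the embryo numbered 1, far above the other 4 (4.61 to 7.45). At L2C, the log2 ratio of summed Tcl1b to Tcl1 was 1.27 in the embryo numbered 3, far from the other 5 (-0.11 to 0.34). That embryo held 31.0 Tcl1 copies beside 30.4 of Tcl1b1 and 28.4 of Tcl1b3.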

How the results depend on the processing

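Over 371 recomputed values, 316 kept their direction and side of the threshold, 34 counts moved, 17 values of single genes lost their call, 4 gained it and 0 reversed. The 4 were the log2 ratio of summed Tcl1b to Tcl1 without the zygotes of run 3, at 0.54 (oocyte to zygote) and -0.51 (zygote to E2C), and without the oocytes of run 3 as well, at 0.43 and -0.51. All 6 members were called lower from E2C to L2C under each alternative run, though no L2C embryo was left out singly in these fits. The 2 calls from 8-cell to 16-cell became 0 with an adjusted p under 0.05, a pseudocount of 0.1, no array weights or edgeR, 1 with a pseudocount of 10, TMM scaling or DESeq2, 4 with summed isoforms, and 0 to 6 when single embryos were left out. Leaving out embryos gave 0 to 1 calls from L2C to 4-cell (1 without the 4-cell embryo numbered 2) and 0 to 4 from 4-cell to 8-cell (4 without the 8-cell embryo numbered 1). Isoform calls with a pseudocount of 0.1 were 4 (oocyte to zygote), 11 (zygote to E2C), 1 (L2C to 4-cell) and 2 (8-cell to 16-cell), and 1 at the last step with no filter. Leaving out embryos they ran from 2 to 7 at zygote to E2C, 0 to 1 at 4-cell to 8-cell and 0 to 11 at 8-cell to 16-cell. With at least 30 UMIs, 1 isoform share and 1 mean length were called from zygote to E2C and 0 mean lengths from E2C to L2C; leaving out embryos, the mean lengths called were 0 to 1 at both steps. The causes were not tested. The run as a term changed no call from oocyte to zygote. No paired analysis was possible because embryo numbers of different stages name different embryos. In the shallowest late cell 1 UMI is worth 20.1 copies. After seeing the data, alternatives without the zygotes of run 3, or its oocytes as well, without the embryos numbered 2 and, for the ratio, without the L2C embryo numbered 3 were added.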
